A study of Danio rerio with 24 samples.

Results

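Claudins are the membrane proteins that build tight junctions, and their RNA was followed here across ovaries of zebrafish that had been exposed to the herbicide atrazine as embryos. A gene was counted as a claudin where its symbol in the RefSeq annotation starts with cldn, and it was measured where the array design names its RefSeq transcript as a target. Of 48 such genes in the annotation, 37 matched 1 target each, with 104 probes on 181 spots in all, among 89208 targets on the array. The 11 others (cldn10d, cldn10e, cldn10l2, cldn18, cldn20, cldn23.1, cldn23.2, cldn23l, cldn31, cldn34a and cldn35) had no matched target and were not analysed here. The 37 include cldnd1a and cldnd1b, which encode claudin domain proteins related to the family.

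All fish were females of the AB strain with wildtype genotype, dosed from 1 to 72 hours post fertilization with atrazine at 0, 0.3, 3 and 30 ppb, raised in clean water and sampled at 5 to 6 months post fertilization. Total RNA of ovaries was hybridised to single-colour Agilent arrays, with 6 replicates at each of the 4 doses and 24 arrays in all. By the study's methods a biological replicate is a group of fish started on its own day. The labels give only replicate numbers, which were taken as such groups. The 4 arrays of a number shared a slide, with 1 fixed position per dose, so that position and dose cannot be told apart. The question was which claudins these ovaries carry and whether their level at 0.3, 3 or 30 ppb differed from the 0 ppb array of the same replicate.

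A claudin spans the membrane 4 times, holds on to claudins of the neighbouring cell and so seals, or selectively opens, the space between epithelial or endothelial cells. In mammals claudin-2, claudin-10 and claudin-15 form ion-permeable pores, whereas claudin-1, claudin-3 and claudin-5 tighten the barrier. Some members mark particular barriers: zebrafish cldn5a and cldn5b belong to brain barriers and vessels, cldnk to myelinating glia, cldnb to skin and lateral line, cldnj to the inner ear and cldn15la to the gut, and in mammals claudin-11 and claudin-19 belong to myelin. In the ovary, junctions join the follicle cells to each other and to the oocyte.

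Levels are log2 intensities of a target's probes relative to the 75th percentile of the same array, so that 0 stands for that percentile. Probes differ in brightness, and a level was therefore compared only between arrays and never between genes. The 4 arrays of replicate 1 correlated with the median 0 ppb array at r = 0.007 to 0.046 over probes, carried a grid marked as poor and were left out. On the remaining 20 arrays the 75th percentile ranged from 417.4 to 2245 intensity units, and 31.3% to 87.1% of probes were well above background. The lowest of these shares was that of 3 ppb replicate 6, whose grid was also marked as poor, as was that of 30 ppb replicate 2. The arrays labelled 0.3 ppb replicates 3, 5 and 6 stood apart, with r = 0.686 to 0.691 to the median 0 ppb array over targets, against 0.884 to 0.976 on the 17 others. On these 3 arrays 13 oocyte markers were changed by a mean log2 of −9.22 to −8.14 against the 0 ppb median and 9 follicle somatic cell markers by −3.32 to −2.46, whereas 13 brain markers differed by 8.30 to 8.62 and 9 myelin markers by 5.46 to 5.81. The levels on these arrays therefore go against their ovary label and are given per array. Other marker lists also differed there, with 7 endothelial markers at 1.43 to 2.25 and 6 blood markers at 3.96 to 5.11 against the 0 ppb median. The 6 kidney markers lay at 0.28 to 1.86 there and at −0.38 to 0.72 at 0 ppb. The 6 gut markers lay at 0.23 to 2.29 there and at −1.22 to 0.80 at 0 ppb. On the 17 others the oocyte markers stayed within −0.16 to 0.37 of the 0 ppb median.

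Most of the family was detected in the unexposed ovaries. A claudin was called detected on an array where at least 50% of its probes were well above background by the extraction software. By this rule each array at 0 ppb also had 8 to 12 of 13 brain markers, 7 to 9 of 9 myelin markers and all 7 liver markers detected. Detection alone thus does not show that ovarian cells carry a claudin. On all 5 arrays at 0 ppb, 30 of 37 claudins were detected, against 57% of all targets. They were the relatives of mammalian barrier claudins cldn1, cldn3c, cldn3d, cldn5a, cldn5b, cldn7a, cldn7b, cldn8.1, cldn8.2 and cldn8.3, the skin and lateral line claudin cldnb, the relatives of the mammalian pore-forming claudins cldn2, cldn10a, cldn10b, cldn15a, cldn15la and cldn15lb, the relatives of the mammalian myelin claudins cldn11a, cldn11b and cldn19, the glial cldnk, the inner ear claudin cldnj, and cldn12, cldn29, cldn30, cldn33b, cldnd, cldng, cldnd1a and cldnd1b. Another 4 (cldn28, cldna, cldne and cldni) were detected on 1 to 4 of these arrays, against 28.6% of all targets. The remaining 3 (cldn15b, cldn26 and cldnf) were detected on none, against 14.4% of all targets. Over the 15 arrays at 0, 3 and 30 ppb, 15 claudins were detected on every array, against 22.7% of all targets, and 27 were without 3 ppb replicate 6, against 46.6%.

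**Figure D1:**
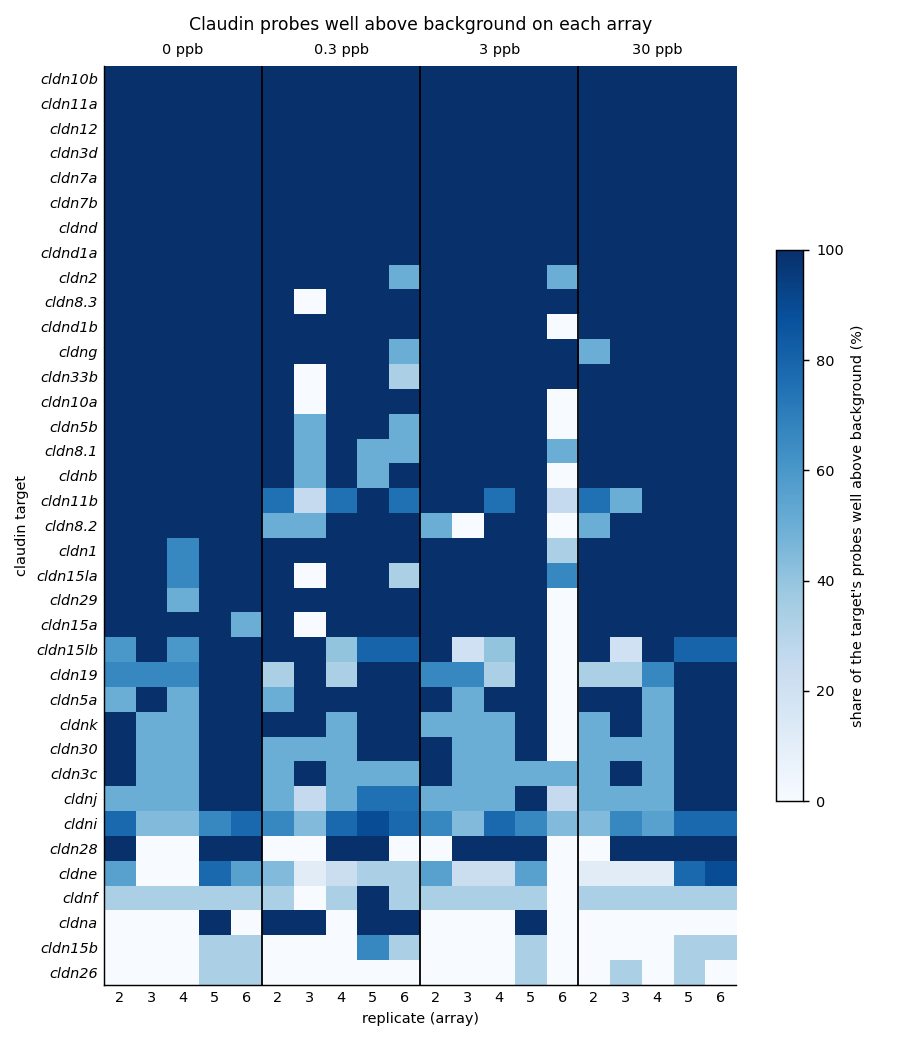
Share of each claudin target's probes that were well above background (colour, in %), with 37 claudins down the page and the 20 arrays of replicates 2 to 6 across it, grouped by atrazine dose (a probe whose spots were all set aside as outliers counts as not above background). The upper rows are filled at 0 ppb for the 30 claudins detected there on all 5 arrays, and the column of 3 ppb replicate 6 is pale for many of them.

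Cldnd and cldng varied little among ovaries and were far lower on the 3 arrays that stood apart. Cldnd (NM_180964) had levels of 1.27, −1.35 and −1.80 on 0.3 ppb replicates 3, 5 and 6, against 7.65 to 8.33 on the 17 other arrays. Cldng (NM_180965) had levels of 0.59, −3.38 and −4.39 on the same arrays, against 7.41 to 8.10 on the 17 others. For both genes the 3 arrays lay below every other array by a log2 of more than 6, replicate 3 was the highest of the 3, and the 0.3 ppb arrays of replicates 2 and 4 lay with the ovaries at 8.09 and 8.20 for cldnd and at 7.82 and 7.86 for cldng. No spot of any claudin was saturated on any array. All 3 cldnd probes were lower on all 3 arrays than on the 0 ppb array of the same replicate, by log2 differences of −10.48 to −6.17, as were both cldng probes. In 5 of the 6 pairs of cldng probes both arrays were well above background, with differences of −11.82 to −6.60. In the other, of replicate 6, the 0.3 ppb array was not, and the probe was at least 5236-fold lower, taken against its own signal there.

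Another 7 claudins were below the range of the 17 other arrays on all 3 arrays, making 9 of 37, against 14.5% of all targets. Cldn7b, an epithelial claudin measured by 9 probes, had −2.58, −2.31 and −2.79 on 0.3 ppb replicates 3, 5 and 6, against 1.66 to 3.05 on the 17 others, and all 9 probes were lower on each of the 3. Cldn8.3, a relative of the mammalian kidney claudin-8, had −6.10, −2.81 and −3.45, against −0.22 to 1.30. Cldn8.1 had −5.02, −5.40 and −5.68, against −3.15 to −1.88. These 3 genes were thus separated from the ovaries on each of the 3 arrays, with a gap of at least 1.87 between the nearest arrays. The single cldn8.3 probe was not well above background on 0.3 ppb replicate 3, where it was at least 77.2-fold lower than on the paired 0 ppb array, and for cldn8.1 1 of 2 probes was not on each of the 3 arrays. Cldn11a had −1.99, −2.01 and −0.80, against −0.073 to 2.65. Cldn33b had −6.65, −2.97 and −6.00, against −2.63 to −0.01. For cldn33b replicate 5 came within 0.34 of the lowest ovary, and no probe on replicate 3 and 1 of 3 on replicate 6 was well above background. Cldn12, a claudin of many tissues, was lower by a narrower margin, at −0.059, −0.083 and 0.081 against 0.698 to 1.503, and cldn10a lay at −6.64, where neither probe was well above background, −4.33 and −4.60 against −4.02 to −2.66.

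The 3 arrays carried 6 claudins above the range of the 17 others, against 24% of all targets. Cldnk (NM_001003464), the claudin of myelinating glia in zebrafish, had 3.82, 4.34 and 4.27 on 0.3 ppb replicates 3, 5 and 6, against −6.52 to −2.82 on the 17 others, a gap of 6.63. Both of its probes were higher on all 3 arrays than in the paired 0 ppb ovaries. In 5 of the 6 pairs of probes both arrays were well above background, with differences of 6.91 to 8.84. In the other, of replicate 3, the 0 ppb array was not, and the probe was at least 1151-fold higher, taken against its own signal there. Cldn19 had −1.82, −1.38 and −1.63, against −6.35 to −3.55. The glial cldnk and cldn19, a relative of a mammalian myelin claudin, were thus higher on each of the 3 arrays, as was the mean of the 9 myelin markers given above. Of the other relatives of mammalian myelin claudins, cldn11a was lower on all 3, as given above, and cldn11b was above the 17 others on replicate 5 alone. On 0.3 ppb replicate 6 cldn11b was at −3.55, and of the 17 only 3 ppb replicate 6, with its poor grid, was higher (−3.22). Cldn5a, of the brain barriers, had −1.60, −0.84 and −1.02, against −5.70 to −3.10, and cldn1 had 0.07, −0.28 and −0.28, against −4.51 to −2.23. Cldn10b had 0.09, 0.79 and 0.70, against −2.44 to −1.10. Cldna had −2.90, −2.56 and −1.77, against −8.90 to −3.98. Its single probe was well above background on all 3 of these arrays but on only 1 of 5 at 0 ppb (replicate 5). In replicate 5, the 1 pair measured on both arrays, the difference was 3.62. It was at least 24.3-fold in replicate 3 and at least 42.2-fold in replicate 6, taken against the lowest signal well above background on the 0 ppb array. On 0.3 ppb replicate 2, which lay with the ovaries otherwise, the probe was also well above background, at −5.34, against −8.90 on the 0 ppb array of replicate 2, which was not. Without 3 ppb replicate 6, a comparison added after the data were seen, 9 claudins lay above and 9 below the other arrays, against 30.2% and 14.6% of all targets, with cldn15b, cldn26 and cldnf as the added ones. Of these, cldn26 was detected on none of the 3 arrays that stood apart, and cldn15b and cldnf on 1 each. None was detected at 0 ppb, so their higher values lie near background and do not show that the 3 arrays carry them. How much of these differences goes with the oocyte, follicle, brain, myelin, endothelial, blood, kidney and gut markers was not tested. In bulk RNA fewer cells of a type and less RNA per cell cannot be told apart.

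**Figure D2:**
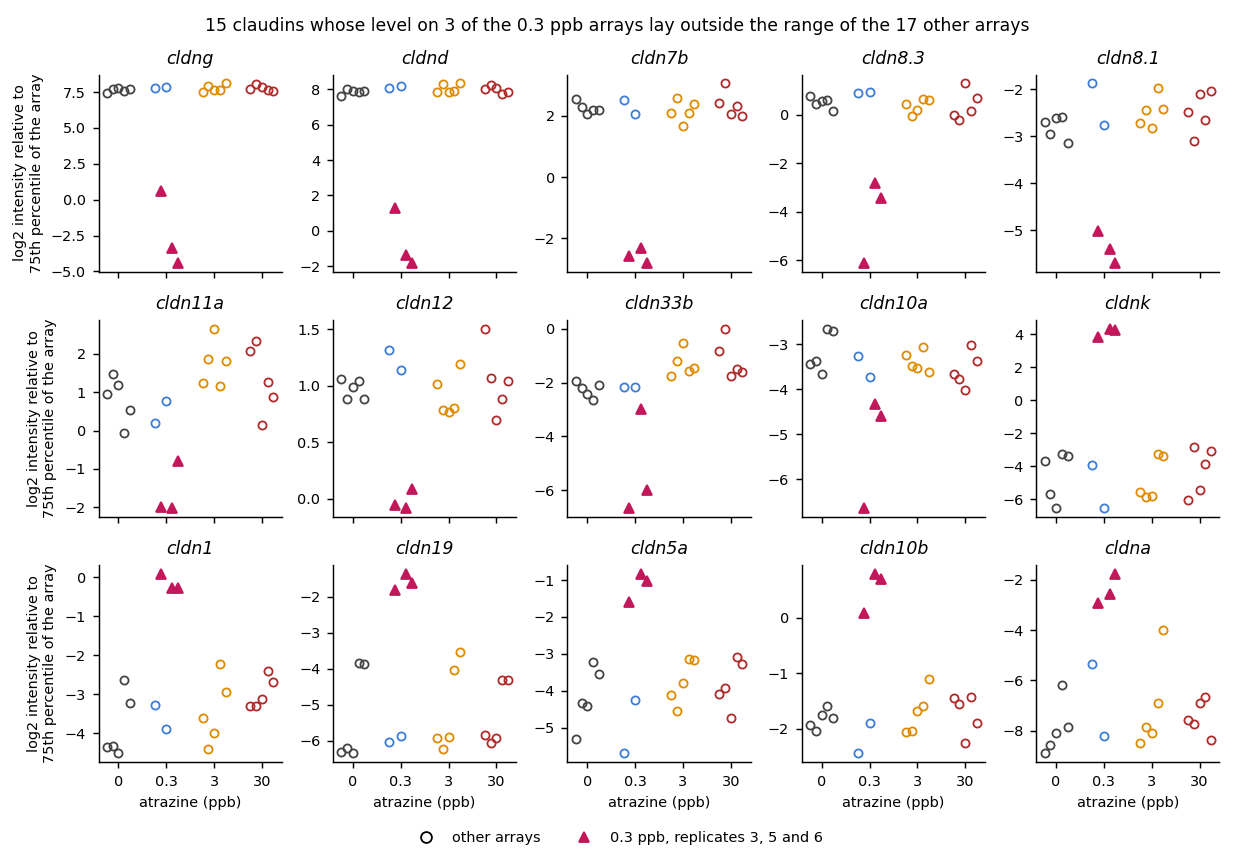
Level (log2 intensity relative to the 75th percentile of the array) of 15 claudins on 20 arrays against atrazine dose, 1 point per array, with filled triangles for 0.3 ppb replicates 3, 5 and 6 and open circles for the 17 others. The triangles lie below all circles for the 9 claudins from cldng to cldn10a and above all circles for the 6 from cldnk to cldna.

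For the remaining 22 claudins the 3 arrays lay neither all above nor all below the ovaries. Single arrays could still lie outside the ovarian range, and 2 of these claudins were high on replicate 3 alone. Cldn15lb had 1.01 on 0.3 ppb replicate 3, −4.07 on replicate 5 and −4.45 on replicate 6, against −6.55 to −2.39 on the 17 others. Cldn2 had 0.74 on replicate 3, −2.80 on replicate 5 and −3.73 on replicate 6, against −2.86 to −1.66. On the same arrays the 7 liver markers differed from the 0 ppb median by a mean log2 of 6.19 on replicate 3, −0.68 on replicate 5 and −3.25 on replicate 6. The 6 gut markers were also highest on replicate 3, at 2.29, against 0.61 on replicate 5 and 0.23 on replicate 6. Over the 17 other arrays cldn2 gave r = 0.27 with the liver list (permutation p = 0.289, adjusted over 74 relations 0.600). Whether cldn2 goes with either list on the 3 arrays was not tested. The vessel claudin cldn5b had −4.06, −3.31 and −4.01 against −3.64 to −1.80, below the range on replicates 3 and 6 and within it on replicate 5. The skin and lateral line claudin cldnb had −4.63, −4.71 and −2.95 against −4.08 to −3.03. It was below the range on replicates 3 and 5 and above it on replicate 6. The embryonic surface layer claudin cldne stayed within the range, at −6.35, −5.94 and −5.94 against −7.73 to −3.94. By detection, 24 claudins were detected on all 3 arrays, against 57.2% of all targets, and 23 of them also on all 5 at 0 ppb, against 46.6%. None of 37 was detected on all 5 at 0 ppb and on none of the 3 (1.04% of all targets), or on the 3 and on none of the 5 (1.79%).

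For several claudins single probes did not move together on these 3 arrays. Of 4 cldn10b probes, 2 were higher by 4.19 to 4.74, 1 was higher by 1.02 to 1.53 and 1 was lower on all 3 arrays, by −0.85 to −0.29. Of 2 cldn5a probes, 1 was higher by 3.84 to 4.52 and the other by 0.53 to 1.60. Cldn11b and cldnj, as means over 4 probes each, were not above the ovarian range on all 3 arrays. Each had 1 probe that was higher on all 3 arrays, by 3.72 to 4.25 for cldn11b and by 3.56 to 4.17 for cldnj. Their means thus combine 1 probe that was far higher with 3 that were not. For cldn5b 1 probe differed by −0.70, 0.94 and −0.63 on replicates 3, 5 and 6, and the other by −3.53, −0.48 and −2.08. For cldnb 1 probe differed by 0.88, 0.35 and 0.79, and the other by −2.56, −3.71 and 0.33. The latter probe was not well above background on 0.3 ppb replicates 3 and 6 for cldn5b, and on replicates 3 and 5 for cldnb. Probes of 1 target share the gene and are no replicates, and which part of the transcript each reads was not analysed here.

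**Figure D3:**
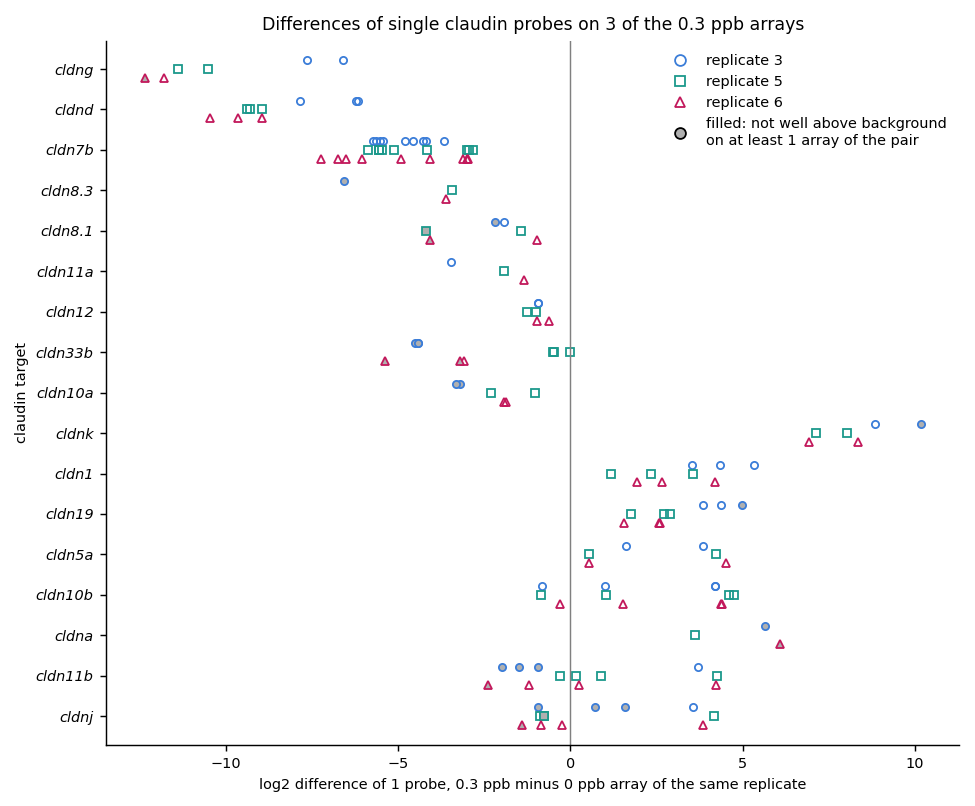
Log2 difference of every single probe of 17 claudins on the 0.3 ppb array minus the 0 ppb array of the same replicate, for replicates 3 (circles), 5 (squares) and 6 (triangles), with filled symbols where at least 1 array of the pair was not well above background. Probes of cldng, cldnd and cldn7b all lie left of 0 and those of cldnk, cldn1 and cldn19 right of it, whereas the probes of cldn10b, cldn11b and cldnj spread over both sides.

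The comparison as labelled, 0.3 ppb against 0 ppb over 5 pairs, called 0 of 36 claudins tested (0% of 73341 targets) at an adjusted p under 0.05 and a 1.5-fold change by limma with the replicate as a block, and the smallest adjusted p of a claudin was 0.182. At an unadjusted p under 0.05 and 1.5-fold, 12 of 36 passed (27.4% of targets), 6 higher (17.3%) and 6 lower (10.1%). Cldn1, cldni and cldn19 were at least 1.5-fold higher with all 5 pairs in 1 direction (6.58% of targets), and cldn11a and cldnd1b were lower in this way (4.39%). For these counts the pairs were taken over all probes of a target, whereas the 1.5-fold change came from the fit over filtered probes. When all 4 doses were fitted together, 12 claudins were called (28.1% of 77368 targets), with adjusted p of 0.0369 to 0.0435. Cldna, cldn1, cldn19, cldnk and cldni were higher, and cldng, cldnd, cldn7b, cldn8.3, cldn11a, cldn10a and cldn28 were lower. When the same fit of 4 doses left out 0.3 ppb replicates 3, 5 and 6, which leaves 2 arrays at 0.3 ppb, 0 were called, and cldn1 (higher) and cldn11b (lower) passed an unadjusted p under 0.05 and 1.5-fold (5.56% of 73592 targets). In pairs 2 and 4 the 12 called claudins fell into several kinds. Cldnd differed by 0.45 and 0.27, cldng by 0.40 and 0.088, cldnk by −0.28 and 0.0018, cldn7b by −0.031 and 0.00026, cldn8.3 by 0.13 and 0.39 and cldn10a by 0.17 and −0.047, none of them near its difference in pairs 3, 5 and 6. Cldn1, at 1.07 and 0.63, cldni, at 0.67 and 0.80, cldn19, at 0.28 and 0.47, and cldn11a, at −0.75 and −0.42, kept the sign of their call in both pairs. Cldna differed by 3.56 in pair 2, where its 0 ppb array was not above background, and −0.14 in pair 4, and cldn28 by −2.16, the lowest of its 5 pairs, and 0.29.

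At 3 ppb no claudin passed the test after adjustment, and the largest differences were those of cldn3d, cldn33b and cldn11a, all above 0. By limma, 0 of 36 claudins were called at 3 ppb against 0 ppb (0% of 74043 targets), and 2 passed an unadjusted p under 0.05 with a 1.5-fold change (5.58% of targets), 2 higher (3.89%) and 0 lower (1.68%). Cldn33b (NM_001045383) had −1.76, −1.19, −0.52, −1.59 and −1.45 at 3 ppb in replicates 2 to 6, against −1.95, −2.19, −2.42, −2.63 and −2.11 at 0 ppb. The 2 groups did not overlap, and 3 ppb was higher in 5 of 5 pairs. The share of all targets whose groups do not overlap was not counted, so this is not shown to be particular to cldn33b. The difference was 0.96 (SE 0.32), with an unadjusted p of 0.0126 and an adjusted p of 0.602, and its 3 probes gave 0.95 to 0.97. Cldn11a had 1.25, 1.86, 2.65, 1.15 and 1.80 at 3 ppb, against 0.95, 1.47, 1.18, −0.07 and 0.54 at 0 ppb. It was higher in 5 of 5 pairs with overlapping groups, by 0.93 (SE 0.41, adjusted p = 0.656). Cldn3d, measured by 1 probe, had 0.29, −2.02, −1.18, −1.62 and −0.22 at 3 ppb, against −2.89, −2.72, −2.40, −2.24 and −1.77 at 0 ppb. It was higher in 5 of 5 pairs, by 1.45 (SE 0.71, adjusted p = 0.662), with pair 2 at 3.18 and the other pairs at 0.62 to 1.55. In all, 3 claudins were at least 1.5-fold higher with all 5 pairs in 1 direction (2.99% of targets) and 0 were lower (1.18%). Cldn7a differed by 0.59 (SE 0.28, adjusted p = 0.662; higher in 4 of 5 pairs), and the lowest difference was that of cldnd1b, −0.40 (SE 0.20, adjusted p = 0.666; lower in 4 of 5 pairs).

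The skin and surface epithelium markers differed in the same arrays. Their 9 measured genes deviated from the 0 ppb median by a mean log2 of 0.39 to 1.24 at 3 ppb and −0.34 to 0.17 at 0 ppb, with no overlap, and 5 to 9 of them were detected at 3 ppb and 8 or 9 at 0 ppb. The 1.24 was that of 3 ppb replicate 6, with its poor grid, and the next highest at 3 ppb was 0.58. On that array the brain list lay at 2.07, the gut list at 3.14 and the liver list at −4.51, with 2 of 13, 3 of 6 and 0 of 7 markers detected. The share of all targets without overlap was not counted. At 30 ppb the list lay at −0.25 to 1.39. The 9 follicle somatic cell markers lay at 0.19 to 0.77 at 3 ppb and −0.28 to 0.28 at 0 ppb, and at −0.18 to 0.51 at 30 ppb. Over the 17 arrays that were not set apart, the level of cldn3d went with this list at r = 0.79 (permutation p = 0.00027, adjusted over 74 relations 0.00999) and Spearman's rho = 0.70 (permutation p = 0.00261, adjusted 0.0644), and r was 0.59 without the 2 arrays farthest from the median of the list. Within the scan session of replicates 3 and 4 r was 0.85 over 7 arrays, and within that of replicates 5 and 6 it was 0.97 over 6 arrays. The session of replicate 2 held 4 arrays, too few for a value. Cldn11a gave r = 0.70 (permutation p = 0.00132, adjusted 0.0326) and rho = 0.79 (adjusted 0.0104), 0.68 without the 2 farthest, 0.81 within the session of replicates 3 and 4 and 0.81 within that of replicates 5 and 6. Cldn33b gave r = 0.70 (permutation p = 0.00214, adjusted 0.0396) and rho = 0.67 (adjusted 0.0696), 0.61 without the 2 farthest, 0.86 within the session of replicates 3 and 4 and 0.55 within that of replicates 5 and 6. The other claudins past an adjusted p of 0.05 for this list were cldn26 and cldn3c, whose r fell to 0.40 and 0.12 without the 2 farthest arrays and so rests on them. These arrays were 30 ppb replicate 3 and 3 ppb replicate 6, 1 in each session, so each r within a session includes 1 of them. Cldn26 likewise gave 0.93 and 0.90 within the sessions, and cldn3c 0.85 and 0.90. The values within sessions are thus no check against the farthest arrays. The part of these lists in the differences at 3 ppb was not tested. Permutations moved the 17 arrays freely across replicates, sessions and doses. Their p-values thus take no account of the likeness of arrays within a replicate or dose. Only claudins were correlated with the lists. The share of all targets past this p was not counted, so the relations are not shown to be particular to the named claudins.

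At 30 ppb no claudin was called either, and cldn1 and cldn33b had the smallest p. By limma, 0 of 36 claudins were called at 30 ppb against 0 ppb (0% of 74043 targets), and 2 passed an unadjusted p under 0.05 with a 1.5-fold change (3.56% of targets), 2 higher (2.73%) and 0 lower (0.829%). Cldn1 (NM_131770), a barrier claudin of mammalian skin, had −3.31, −3.29, −3.11, −2.40 and −2.68 at 30 ppb in replicates 2 to 6, against −4.33, −4.32, −4.51, −2.63 and −3.22 at 0 ppb. The groups overlapped because replicates 5 and 6 were higher than replicates 2 to 4 at both doses, but 30 ppb was higher in 5 of 5 pairs, by 0.23 to 1.40. The mean difference was 0.84 (SE 0.20), with an unadjusted p of 0.00184 and an adjusted p of 0.642, and its 3 probes gave 0.32, 0.96 and 1.25. At 3 ppb cldn1 differed by 0.37 (SE 0.20, adjusted p = 0.682). The level of cldn1 went with the skin list at r = 0.17 (permutation p = 0.522, adjusted 0.729) and rho = 0.047 (permutation p = 0.86), and r was 0.077 without the 2 farthest arrays, 0.19 within the session of replicates 3 and 4 and −0.0062 within that of replicates 5 and 6. Cldn33b had −0.84, −0.01, −1.75, −1.50 and −1.62 at 30 ppb, against the 0 ppb values given above. It again did not overlap with 0 ppb, a trait whose share over all targets was not counted here either. It was higher in 5 of 5 pairs, by 1.12 (SE 0.32, unadjusted p = 0.00543, adjusted p = 0.789), with 1.07 to 1.17 over its 3 probes. These were the 2 claudins at least 1.5-fold higher with all 5 pairs in 1 direction (2.15% of targets), and 0 were lower (0.723%). The comparisons of 3 and 30 ppb share their 0 ppb arrays. Cldn10a, related to the mammalian pore-forming claudin-10, was lower in 5 of 5 pairs, with −3.67, −3.78, −4.02, −3.02 and −3.38 at 30 ppb, against −3.43, −3.37, −3.67, −2.66 and −2.70 at 0 ppb, a difference of −0.41 (SE 0.17, unadjusted p = 0.0375, adjusted p = 0.941). Cldn3d and cldn11a differed by 0.70 (SE 0.71, adjusted p = 0.949) and 0.52 (SE 0.41, adjusted p = 0.941) at 30 ppb, with pairs of either sign.

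**Figure D4:**
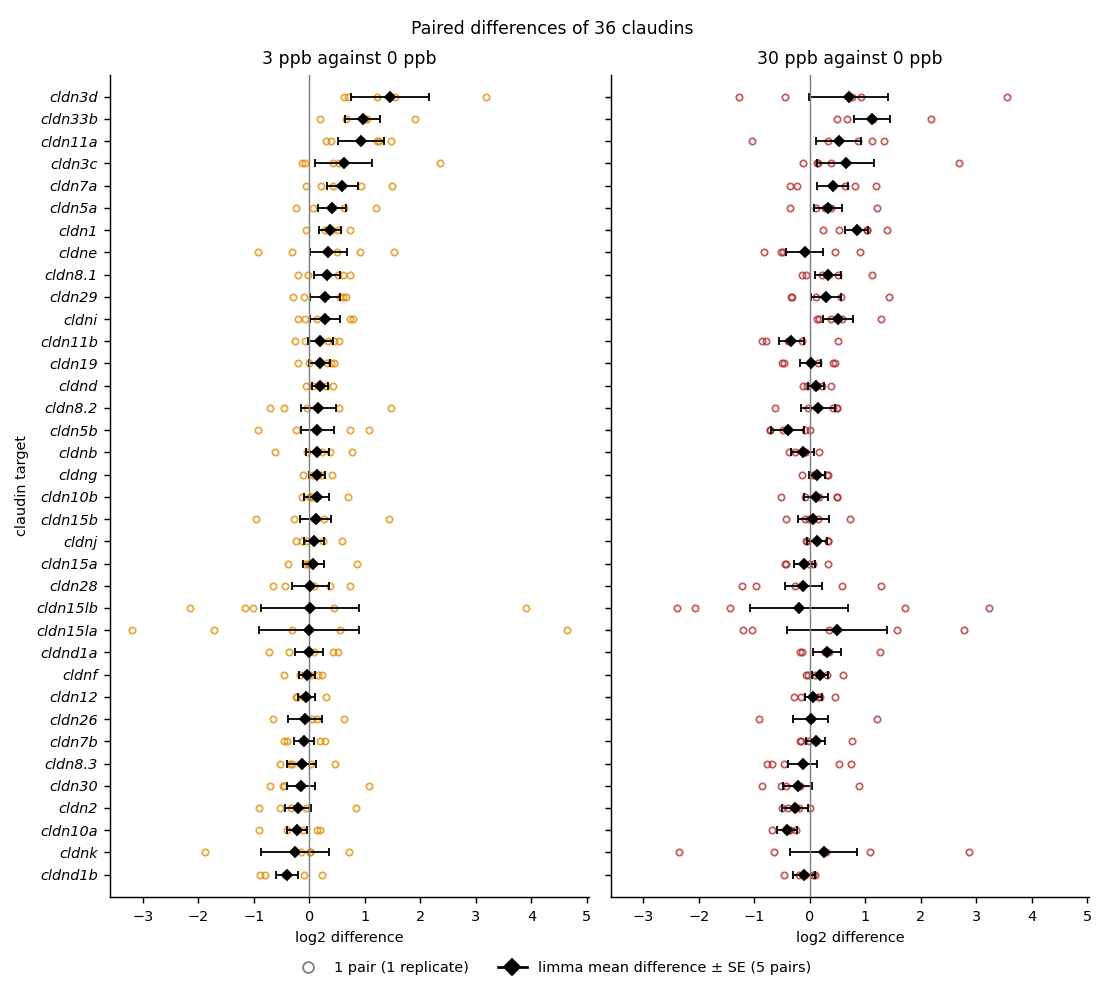
Log2 difference of 36 claudins at 3 ppb (left) and 30 ppb (right) against the 0 ppb array of the same replicate, with open circles for the 5 pairs and diamonds with bars for the limma mean difference ± SE, ordered by the difference at 3 ppb. Cldn3d (1.45), cldn33b (0.96) and cldn11a (0.93) lead at 3 ppb, and cldn33b (1.12) and cldn1 (0.84) at 30 ppb.

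The differences of cldnd at 3 and 30 ppb did not exceed the spread between pairs. Cldnd differed by 0.19 (SE 0.14, adjusted p = 0.758) at 3 ppb, with pairs of −0.063 to 0.43, and by 0.11 (SE 0.14, adjusted p = 0.959) at 30 ppb, with pairs of −0.13 to 0.38. Across the family the median difference was 0.13 at 3 ppb, beside 0.08 over all targets, and 0.11 at 30 ppb, beside 0.09. At each of the 2 doses 24 of 36 claudins had a mean difference above 0, beside 60.3% of all targets at 3 ppb and 64.0% at 30 ppb. The claudins known from glia, vessels or the embryonic surface layer also missed the threshold at both doses: cldnk differed by −0.26 (SE 0.60) at 3 ppb and 0.25 (SE 0.60) at 30 ppb, cldn19 by 0.19 (SE 0.19) and 0.02 (SE 0.19), cldn5a by 0.41 (SE 0.25) and 0.33 (SE 0.25), cldn5b by 0.14 (SE 0.29) and −0.40 (SE 0.29), cldn11b by 0.20 (SE 0.22) and −0.34 (SE 0.22) and cldne by 0.34 (SE 0.33) and −0.10 (SE 0.33), all with adjusted p of 0.706 or more.

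Some claudins varied widely among ovaries of every dose. Cldn15lb ranged from −6.55 to −2.39 over the 17 arrays, and its level went with the 7 liver markers, which deviated from the 0 ppb median by −5.83 to 3.62 on these arrays. Pearson's r was 0.87 (permutation p = 5e-05, adjusted 0.0037) and Spearman's rho was 0.92 (permutation p = 1e-05, the smallest that 100000 resamples can give; adjusted 0.00074). The relation was r = 0.83 without the 2 arrays farthest from the median of the list, 0.97 within the scan session of replicates 3 and 4 and 0.78 within that of replicates 5 and 6. It was the 1 of 37 claudins past an adjusted p of 0.05 for the liver list, by the same free permutation of the 17 arrays. The share of all targets with such a relation was not counted, so it is not shown to be particular to cldn15lb. The paired differences of cldn15lb were −2.15 to 3.91 at 3 ppb and −2.39 to 3.23 at 30 ppb. Cldn15lb was not detected on 3 ppb replicates 3, 4 and 6, 30 ppb replicate 3 and 0.3 ppb replicate 4. The low end of its range thus lies near background. Cldn15la, the gut claudin, ranged from −5.72 to −0.41, with paired differences of −3.19 to 4.64 at 3 ppb and −1.21 to 2.77 at 30 ppb. Among the 0 ppb ovaries its level was −0.62, −1.03, −5.72, −2.11 and −1.99, with replicate 4 far below the others.

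**Figure D5:**
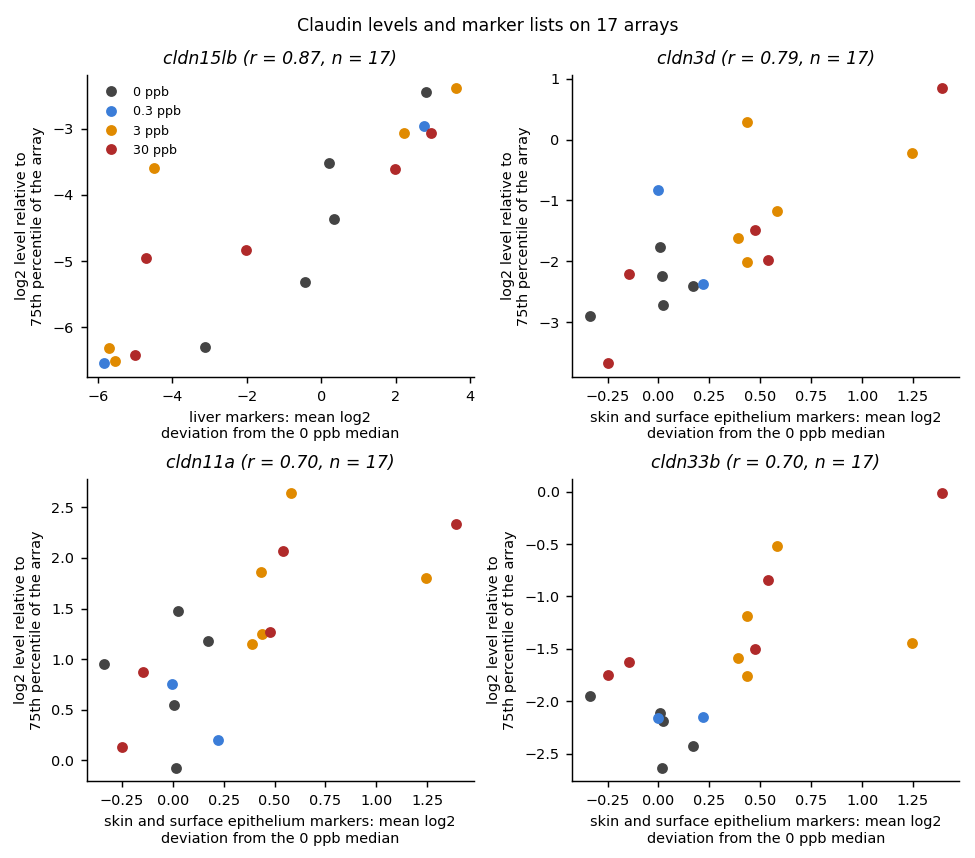
Level of cldn15lb against the mean log2 deviation of 7 liver markers from the 0 ppb median, and levels of cldn3d, cldn11a and cldn33b against that of 9 skin and surface epithelium markers, 1 point per array for 17 arrays, coloured by dose, with Pearson's r in each panel title. The points climb from lower left to upper right in all 4 panels, and the 5 arrays at 3 ppb lie right of those at 0 ppb in the 3 skin panels.

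Levels of some claudins also differed between scan sessions, as did those of many other targets. At 0 ppb, replicates 5 and 6 both lay above replicates 2, 3 and 4 by a log2 of 1 or more for 6 of 37 claudins (22.4% of targets): cldn19, cldnj, cldn28, cldn30, cldni and cldn1. Cldn19 was at −6.31, −6.22 and −6.35 in replicates 2 to 4 and at −3.83 and −3.87 in replicates 5 and 6. The pairs compare arrays of 1 slide and session, and start day, slide and session of a replicate cannot be told apart.

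Claudins that are neighbours in the genome did not all move together. In the annotation (assembly GRCz12tu, used for gene order only) cldn8.3 lies between cldn8.2 and cldn8.1. On 0.3 ppb replicates 3, 5 and 6 cldn8.3 and cldn8.1 were below all ovaries. Cldn8.2 had −5.64, −3.79 and −3.71 against −6.50 to −4.05, within the ovaries on replicate 3 and above them on replicates 5 and 6. Likewise cldnd, below all ovaries on these arrays, lies between cldn29 and cldn28. Cldn29 had −3.61, −2.82 and −2.53 against −4.96 to −2.71, above the ovaries on replicate 6 alone. Cldn28 stayed within the ovaries, at −6.95, −5.42 and −5.77 against −8.09 to −4.08.

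Other tight junction genes were followed beside the claudins. Of 53 listed gene names, some of them synonyms of one another, 32 matched a measured target. Of these, 30 were detected on all 5 arrays at 0 ppb, against 57% of all targets. On the 3 arrays that stood apart 19 of the 32 lay below the range of the 17 others and 6 above it, beside 14.5% and 24% of all targets. Occludin a (oclna) was at −4.21 to −0.82 there, against 4.22 to 4.86 on the 17 others, and tricellular junction gene marveld2b at −0.95 to 0.52, against 2.47 to 3.21. The MARVEL domain gene marveld3 was at −7.37 to −6.06, against 0.48 to 1.73. None of the 32 was called at 3 or 30 ppb by limma (0% of targets at each dose). At an unadjusted p under 0.05 and 1.5-fold, 2 of 32 passed at 3 ppb, amotl2b and jam3b (5.58% of targets). At 30 ppb 1 of 32 passed, pard3ab (3.56% of targets). All were higher, and their number lies near the share over all targets. Their median difference was 0.09 at 3 ppb, beside 0.08 over all targets, and 0.12 at 30 ppb, beside 0.09.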

How the data were processed

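The authors scanned the arrays and extracted them with Agilent Feature Extraction 11.5, and deposited a processed signal intensity, median signal and background intensities and yes-or-no marks (well above background, saturated, outlier) per spot. Probe sequences were not used here. The authors' own normalization and the genome build behind the design were not used here. Targets were named through the RefSeq transcripts of the annotation. The members, marker lists and tests were chosen with earlier results of these data known.

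Processed intensities were taken to log2 (floor 1), the 75th percentile of each array was subtracted, outlier spots were left out and spots were averaged per probe. Probes well above background on at least 3 arrays of a fit were centred and averaged per target. Levels in the text are means over all probes of a target, as are the pairs at 0.3 ppb. Pairs at 3 and 30 ppb were taken over the filtered probes of the fit. Differences were fitted with limma 3.58.1 in R 4.3.3, with dose and replicate, over 15 arrays (0, 3 and 30 ppb, replicates 2 to 6) or 10 arrays (0 and 0.3 ppb), with Benjamini-Hochberg adjustment over all targets and calls at 0.05 and 1.5-fold. Replicate numbers were taken to mark a shared start day, from the definition of a biological replicate in the study's methods. Over 66550 targets the deviations from the dose means correlated at a median of 0.41 for 15 same-numbered pairs of arrays (lowest 0.078, 14 above 0.1). For 60 pairs of different number the median was −0.32, with 23 above 0.1. The deviations sum to 0 within a dose, which lowers the values for different numbers. Same-numbered arrays also share slide and session, so these values do not single out the start day. Correlations with marker lists used 100000 permutations and were chosen after the data were seen. Fits and permutations were tested on simulated data. Alternatives covered background correction, quantile normalization, probe filters, the summary over probes, the samples fitted, the block and the methods' analysis of variance. Named claudins were those detected on all 5 arrays at 0 ppb, those at least 1.5-fold different with 5 of 5 pairs in 1 direction, and the 3 with the smallest p at each of 3 and 30 ppb. Another 8 were named whatever their values (cldnd, cldne, cldnk, cldn11a, cldn11b, cldn19, cldn5a and cldn5b). Others named were chosen after their values were seen. P-values of limma set a difference against the spread left after dose and replicate number are fitted, moderated over targets. Those of the correlations rest on the spread over freely permuted arrays. The number of arrays limits the precision.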

Additional observations from a re-analysis of the deposited data

Results flagged for a closer look

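Of 148 groups of 5 arrays (37 claudins at 4 doses), 6 held 1 array far from the other 4, and about 1 in 20 groups would be picked out by chance. In 4 of the 6 the distant array was 3 ppb replicate 6, on which 31.3% of probes were well above background: cldn15b was at −3.82 there (others −7.90 to −7.20), cldn26 at −3.76 (others −8.44 to −7.51), cldne at −3.94 (others −6.96 to −6.29) and cldnf at −3.17 (others −6.96 to −6.11). None of these 4 claudins was detected on that array. Cldn5b was at −1.80 on 3 ppb replicate 4 (others −2.89 to −2.70), and cldnf was at −6.97 on 30 ppb replicate 4 (others −6.36 to −6.24).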

How the results depend on the processing

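The count of claudins called at 3 ppb and at 30 ppb was 0 under every alternative that was run, including the fit with no replicate block and each replicate left out in turn. Over all targets the count, 0 in the report, was not always 0. At 3 ppb it was 1 with no replicate block, 3 with only probes well above background on every array and 117 by the methods' analysis of variance with Tukey's test, unadjusted, and 0 to 2 with single replicates left out (2 without replicate 2 and 2 without replicate 6). At 30 ppb it was 3 with normexp, 7 with only probes above background on every array, 2 with only the 2 groups compared, 59 by the methods' test unadjusted, 1 without the arrays of poor grid, and 0 to 3 with single replicates left out (2 without replicate 2 and 3 without replicate 6). At 0.3 ppb, all 4 doses in 1 fit gave 21713 targets and 12 claudins, the methods' test unadjusted gave 12213 targets and 6 claudins (2 higher and 4 lower), the methods' test adjusted gave 2 targets, and no replicate block gave 1 target. No array of the 0.3 ppb comparison had a poor grid mark, so that alternative has no value there. The claudins detected on all 0 ppb arrays, 30 in the report, were 19 when every probe had to be above background and 13 with replicate 1 included. The replicate block changed no other call.

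Of 26 differences of single claudins, none of which was called, 14 changed sign under at least 1 alternative, in 29 of 378 values over all alternatives. With replicate 1 included in the replicate block, the differences at 3 ppb were −0.21 for cldn1, −0.13 for cldn11b, −0.011 for cldn19 and −0.23 for cldnd, and those at 30 ppb were 0.065 for cldn5b, −0.10 for cldn7a, −0.0070 for cldnd and −0.095 for cldnk. With quantile normalization cldn19 was at −0.066 at 3 ppb and −0.17 at 30 ppb, cldnd at −0.018 and −0.039, and cldne at −0.0998 at 3 ppb. At 30 ppb cldn19 was at −0.13 with the median over probes and −0.057 without the arrays of poor grid, and cldne was at 0.048 with no filter on dim probes, 0.17 with normexp and 0.036 without the arrays of poor grid. Cldnk at 3 ppb was at 0.029 with normexp. With single replicates left out, the range was −0.093 to 0.14 for cldn19, −0.0100 to 1.198 for cldn3d, −0.35 to 0.088 for cldne and −0.41 to 0.90 for cldnk at 30 ppb, and −0.089 to 0.41 for cldn5b and −0.50 to 0.14 for cldnk at 3 ppb. The cause of these changes was not tested. Cldn33b stayed at 0.73 to 1.15 at 3 ppb and 0.85 to 1.28 at 30 ppb, and cldn1 at 0.71 to 1.00 at 30 ppb, with single replicates left out. Signals near background limit cldn15b, cldn26, cldna, cldne and cldnf, and the low values of cldn15lb.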
